A study of Mus musculus with 6 samples.

Results

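The genes described here carry the light signal into ON bipolar cells, the retinal interneurons that depolarise when light lowers the glutamate released by photoreceptors. They were chosen by name as 10 genes of the cascade that links the glutamate receptor mGluR6 to the cation channel TRPM1 and of rod bipolar cells, and all 10 symbols were found among the 55573 genes of the count table. In this cascade glutamate released in darkness activates mGluR6, whose G protein Gαo keeps TRPM1 closed. When glutamate falls in light, regulators of G protein signalling (RGS proteins) speed the return of Gαo to its inactive state and TRPM1 opens. In humans, loss of GRM6, TRPM1, GPR179, NYX or LRIT3 causes congenital stationary night blindness.

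The cells were sorted by flow cytometry as retinal ganglion cells (RGCs), the output neurons of the retina, from C57BL/6 mice with floxed Myh9 and Myh10, which encode heavy chains of nonmuscle myosin II. Total RNA was sequenced from 3 libraries labelled dKO (Myh9/10 double knockout), whose eyes had received AAV2-Cre into the vitreous, and from 3 libraries labelled WT, whose eyes had received AAV2-GFP. Both groups carried the same floxed alleles, were taken 2 weeks after injection, and had 3 retinas from different mice pooled in each library. The age of the mice, the promoter that drove Cre and any sharing of mice between replicates are not given in the labels, so each p-value reflects how far these libraries vary, possibly for technical reasons.

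Counts outside a single ribosomal RNA row (CT010467.1) were 453327 to 1636581 in dKO and 346037 to 499313 in WT; that row took 64.19% of dKO replicate 3 and 89.78% to 92.82% of the other 5 libraries. Values are therefore CPM, read counts scaled to library size, with TMM factors that correct for a few dominant rows. Myh9 had 63.7, 66.2 and 58.2 CPM in dKO replicates 1 to 3, against 63.6, 68.4 and 60.7 in WT. Myh10 had 19.2, 20.6 and 14.2 CPM in dKO, against 19.9, 19.96 and 16.3 in WT. Neither targeted gene was detectably lower in the libraries labelled dKO (edgeR adjusted p = 0.908 and 0.735), and reads from exons outside the floxed part do not check the deletion, so every direction below is between libraries as labelled. RGC-defining transcripts were scarce: Pou4f2 had 0, 2 and 5 counts in dKO and 0 in each WT library, while Rbpms had 9, 8 and 30 counts in dKO and 11, 5 and 6 in WT. Bipolar cell markers were present in all 6 libraries, with 61 to 252 Prkca counts in dKO and 94 to 117 in WT, and 158 to 567 Trpm1 counts in dKO and 200 to 253 in WT.

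The sequences upstream of Grm6, Trpm1 and Gpr179 are shown because these genes encode the receptor, the channel and their scaffold in one complex and were all lower in the libraries labelled dKO. Each also has a window without an annotated exon of the members, and exons of other genes were not checked. For Gpr179, unlike the Grm6 and Trpm1 windows shown, the bases after the RefSeq start were not found in a GENCODE transcript of the gene. Each window holds the 250 bases before a RefSeq transcript start in GRCm38.p6, written 5′ to 3′ on the strand of the gene. Capitals mark TAATC or its reverse complement GATTA, including the longer TAATCC, reverse complement GGATTA, that the photoreceptor and bipolar factors CRX and OTX2 bind.
Grm6 upstream window, chr11:50850435-50850684, plus strand: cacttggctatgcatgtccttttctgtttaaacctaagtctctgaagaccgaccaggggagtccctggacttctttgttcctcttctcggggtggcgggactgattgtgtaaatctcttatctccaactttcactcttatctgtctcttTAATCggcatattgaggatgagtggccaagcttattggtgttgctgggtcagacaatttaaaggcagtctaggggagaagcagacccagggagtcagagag
Trpm1 upstream window, chr7:64153585-64153834, plus strand: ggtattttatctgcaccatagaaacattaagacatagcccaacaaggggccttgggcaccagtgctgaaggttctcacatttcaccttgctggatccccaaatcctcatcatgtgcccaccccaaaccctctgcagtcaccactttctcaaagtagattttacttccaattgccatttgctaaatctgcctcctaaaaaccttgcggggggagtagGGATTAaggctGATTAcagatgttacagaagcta
Gpr179 upstream window, chr11:97352357-97352606, minus strand: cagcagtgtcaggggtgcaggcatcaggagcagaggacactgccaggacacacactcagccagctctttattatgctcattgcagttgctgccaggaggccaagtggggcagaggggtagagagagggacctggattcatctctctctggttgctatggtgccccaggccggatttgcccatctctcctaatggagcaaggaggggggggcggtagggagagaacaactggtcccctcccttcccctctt
TAATCC stood, on either strand, in 1 of the 9 members with a window (Trpm1) and in 7.21% of 27025 genes. The shorter TAATC stood in 4 of 9 members (Grm6, Trpm1, Lrit3 and Pcp2) and in 22.3% of all genes. These matches describe letters and are not evidence of binding. Base composition separated the members: the windows of Prkca, Gnao1 and Rgs7, genes also used by many other neurons, were 76.8%, 76.4% and 72.4% G and C, whereas those of Grm6, Trpm1, Gpr179, Nyx, Lrit3 and Pcp2 were 43.2% to 58.8%, against a median of 52.4% over 32851 windows. Annotated exons of the members covered 202 of the 250 bases for Gnao1, 40 for Prkca and 0 for Rgs7. Among the other windows the most was 86, in a Pcp2 window.

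Several genes of the mGluR6 cascade were lower in the libraries labelled dKO, except under scaling by library total. In that scaling the median log2 fold change of all genes is 1.21, and the called members had positive values below it. Of the 10 genes, 8 were abundant enough to test, and Grm6, Trpm1, Gpr179, Prkca and Gnao1 all fell, with changes of -42.4% to -32.8% (edgeR quasi-likelihood test, p adjusted by Benjamini-Hochberg over 8444 genes, threshold 0.05). Over all genes tested, 1.18% were called lower and 0.734% higher, 1.92% in all. No member was called higher: DESeq2 and limma-voom also called 0, and 0 had an unadjusted p under 0.05 in that direction. Nyx, Rgs11 and Pcp2 were tested but did not pass, and Lrit3 and Rgs7 were below the count minimum. The log2 fold changes of the 8 tested members were all below 0 and had a median of -0.62, against -0.00072 over all genes tested. In 6 of the 8 every dKO library was below every WT library, and in 0 was every dKO library above; over all genes tested these shares were 8.31% and 8.66%. DESeq2 called 4 members and 0.308% of genes lower, and limma-voom 5 members and 1.26% of genes. In bulk RNA, fewer bipolar cells in a library and less RNA per bipolar cell cannot be told apart. The values describe libraries of cells sorted as RGCs, and the number of bipolar cells in the retina was not measured.

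**Figure D1:**
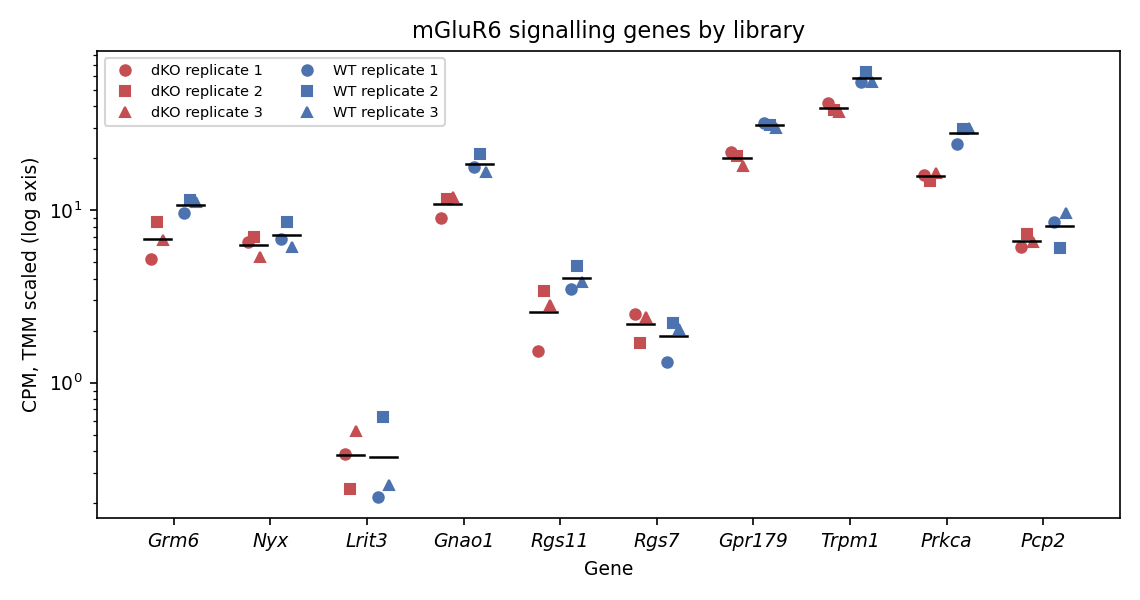
CPM (TMM scaled, log axis) of the 10 genes in each library, dKO left of WT, with black lines at the group means. The dKO points lie below all WT points for Grm6, Gnao1, Rgs11, Gpr179, Trpm1 and Prkca, and the groups overlap for Nyx, Lrit3, Rgs7 and Pcp2; under library-total scaling the called members had positive fold changes.

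The receptor came first in the cascade. Grm6 (ENSMUSG00000000617, chromosome 11, 50850685 to 50866208, GRCm38) encodes mGluR6, the glutamate receptor at the dendritic tips of ON bipolar cells. It had 5.18, 8.49 and 6.73 CPM in dKO replicates 1 to 3, against 9.61, 11.4 and 11.2 in WT. All 3 dKO values were below all WT values, and dKO replicate 1 was the lowest. The log2 fold change was -0.67 ± 0.19 (SE; adjusted p = 0.0351, edgeR), a 95% interval of -51.4% to -18.6%. Grm6 rests on 27 to 103 counts in dKO and 36 to 44 in WT, and its call was the least stable: DESeq2 gave an adjusted p of 0.483, and the edgeR call was lost without the low-count filter (0.0829) and without any single library except dKO replicate 2 (0.0567 to 0.159). The log2 fold change itself stayed negative and of similar size in these fits, at -0.67 with DESeq2, -0.63 without the filter and -0.76 to -0.57 without single libraries. The share of all genes called lower was 0.445% without the filter. It was 1.08%, 1.24% and 0.762% without dKO replicates 1 to 3 in turn, and 0.652%, 0.810% and 0.977% without WT replicates 1 to 3.

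Nyctalopin and LRIT3 are leucine-rich repeat proteins that help to place TRPM1 at the dendritic tips. Nyx (chromosome X, 13466110 to 13489313), the gene of nyctalopin, had 6.53, 7.04 and 5.35 CPM in dKO, against 6.77, 8.55 and 6.12 in WT. The groups overlapped, and the log2 fold change of -0.24 ± 0.21 (SE; adjusted p = 0.722, edgeR) had a 95% interval of -37.0% to 13.6%, which does not exclude a change as large as that of Trpm1. Lrit3 (chromosome 3, 129787881 to 129804030) was barely detected, with 2, 1 and 8 counts in dKO and 1, 2 and 1 in WT, so a difference was not detectable at this depth.

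The G protein subunit was lower with the receptor. Gnao1 (ENSMUSG00000031748, chromosome 8, 93809966 to 93969388) encodes Gαo, which many neurons besides bipolar cells also use. It had 9.02, 11.6 and 11.9 CPM in dKO, against 17.9, 21.2 and 16.6 in WT. The highest dKO library was below the lowest WT library, and the log2 fold change was -0.72 ± 0.15 (SE; adjusted p = 0.000638, edgeR), a 95% interval of -50.4% to -26.0%. The antisense gene 4930488L21Rik shares 284 exon bases with Gnao1 but had only 0 to 2 counts in any library.

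The RGS proteins that switch Gαo off gave no call. Rgs11 (chromosome 17, 26202951 to 26211324) had 1.54, 3.40 and 2.81 CPM in dKO, against 3.50, 4.75 and 3.83 in WT. The dKO values lay below the WT values, but from 8 to 43 counts in dKO and 15 or 16 in WT the log2 fold change of -0.59 ± 0.31 (SE) did not pass (adjusted p = 0.421, edgeR). Rgs7 (chromosome 1, 175059087 to 175492500), whose protein acts beside RGS11, had 2.50, 1.70 and 2.42 CPM in dKO, against 1.31, 2.22 and 2.04 in WT. Its groups overlapped, it reached the count minimum in 2 dKO libraries and in 0 WT libraries, and without a filter its log2 fold change was 0.38 ± 0.39 (SE; adjusted p = 0.803, edgeR). Gpr179 (ENSMUSG00000070337, chromosome 11, 97332109 to 97352077) encodes the orphan receptor that anchors these RGS proteins beside mGluR6. It had 21.9, 20.6 and 18.0 CPM in dKO, against 31.9, 31.0 and 30.1 in WT. The groups were well separated and the WT spread was small, with a log2 fold change of -0.66 ± 0.12 (SE; adjusted p = 9.00e-05, edgeR) and a 95% interval of -46.3% to -25.5%.

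The channel at the end of the cascade was the most counted member. Trpm1 (ENSMUSG00000030523, chromosome 7, 64153835 to 64269775) encodes the cation channel that mGluR6 keeps closed in darkness. It had 42.0, 38.3 and 37.0 CPM in dKO, against 55.3, 63.4 and 55.6 in WT. No dKO library reached the lowest WT library, and the log2 fold change was -0.57 ± 0.10 (SE; adjusted p = 5.23e-05, edgeR), a 95% interval of -41.5% to -22.9%. The microRNA gene Mir211 lies within Trpm1 on the same strand, and its row held 0 counts in each dKO library and 1, 0 and 0 in WT.

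Prkca and Pcp2 mark rod bipolar cells beside the cascade. Prkca (ENSMUSG00000050965, chromosome 11, 107933387 to 108343928) encodes protein kinase C alpha, the classical marker of rod bipolar cells. It had 15.9, 14.8 and 16.5 CPM in dKO, against 24.3, 29.8 and 29.8 in WT. It had the smallest p of the 10 genes and the rank 19 of all genes tested, with a log2 fold change of -0.79 ± 0.12 (SE; adjusted p = 4.25e-06, edgeR) and a 95% interval of -51.4% to -31.7%. Pcp2 (chromosome 8, 3623371 to 3625545), whose protein binds Gαo, had 6.14, 7.28 and 6.53 CPM in dKO, against 8.52, 6.02 and 9.69 in WT. WT replicate 2 was the lowest of all 6 libraries, and the log2 fold change of -0.32 ± 0.20 (SE) did not pass (adjusted p = 0.546, edgeR; 95% interval -39.2% to 5.56%). Pcp2 shares 941 of its 1828 exon bases with Pet100 on the opposite strand, which had 12 to 37 counts in dKO and 1 to 17 in WT, and without a stated strand setting the reads of the pair cannot be told apart.

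Per length of merged exons, Pcp2 was the highest member in both groups and Rgs7 and Lrit3 the lowest. The Pcp2 level is uncertain, because 941 of its 1828 exon bases are shared with Pet100 and its counts may include Pet100 reads. Pcp2 stood at 3.64 ± 0.316 CPM per kb in dKO and 4.42 ± 1.03 in WT (SD, n = 3 each). Trpm1 followed at 2.65 ± 0.176 and 3.94 ± 0.310 CPM per kb, and in WT the Pcp2 and Trpm1 levels did not differ beyond their spread. Gpr179 (2.11 ± 0.206 in dKO and 3.25 ± 0.0948 in WT) and Prkca (1.75 ± 0.0939 in dKO and 3.11 ± 0.357 in WT) came next, and in WT these 2 overlapped. Grm6 was at 1.25 ± 0.306 CPM per kb in dKO and 1.98 ± 0.182 in WT. Below it, Gnao1 was at 0.982 ± 0.144 and 1.68 ± 0.217, and Nyx at 1.217 ± 0.166 and 1.38 ± 0.243, so these neighbours overlapped in WT and Nyx stood above Gnao1 in dKO. Rgs11 was at 0.613 ± 0.226 and 0.957 ± 0.155 CPM per kb, and Rgs7 at 0.366 ± 0.0729 and 0.308 ± 0.0798. Lrit3 was at 0.140 ± 0.0511 in dKO and 0.135 ± 0.0839 in WT. Merged exons include rarely used ones, so a gene with many alternative exons, such as Trpm1 with 14746 bases, may be understated. The use of single exons was not tested.

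**Figure D2:**
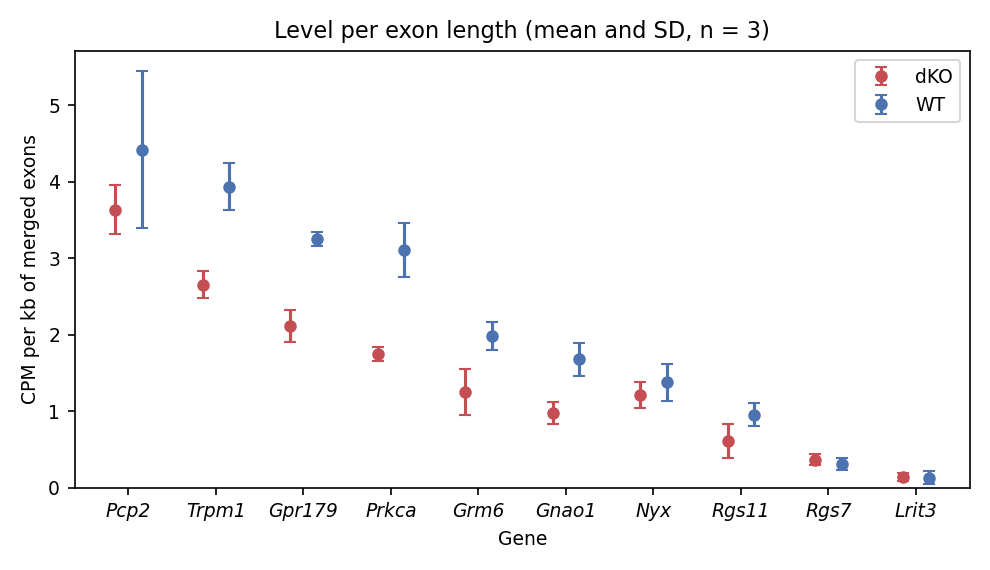
Mean CPM per kb of merged exons with SD (n = 3 each) for the 10 genes, ordered by the WT level, dKO left of WT. Pcp2, whose counts may include reads of the overlapping gene Pet100, and Trpm1 are at the top and Lrit3 at the bottom. The mean ± SD ranges of dKO and WT do not overlap for Trpm1, Gpr179, Prkca, Grm6 and Gnao1.

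Summed over the 10 genes, the libraries held 579, 468 and 1650 counts in dKO replicates 1 to 3, against 729, 565 and 648 in WT. As a share of counts outside the ribosomal RNA row this was 0.101%, 0.103% and 0.101% in dKO, against 0.146%, 0.163% and 0.147% in WT. The dKO libraries, dKO replicate 3 included, lay close together and below every WT library. The mean share was 0.102% ± 0.00149 in dKO and 0.152% ± 0.00973 in WT (SD, n = 3 each), a ratio of 0.668. Trpm1 made up 33.8% to 37.8% of the sum in dKO and 33.6% to 35.4% in WT, so its weight was about the same in both groups. Without Gnao1, Rgs7 and Prkca, which other retinal cells also express, the log2 ratio of the mean shares was -0.53, against -0.58 with them. No p is given for the sum because the members were chosen with earlier results known. Taken over the library total, which includes the ribosomal RNA row, the log2 ratio was 0.59 in the other direction, since dKO replicate 3 held far less ribosomal RNA.

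**Figure D3:**
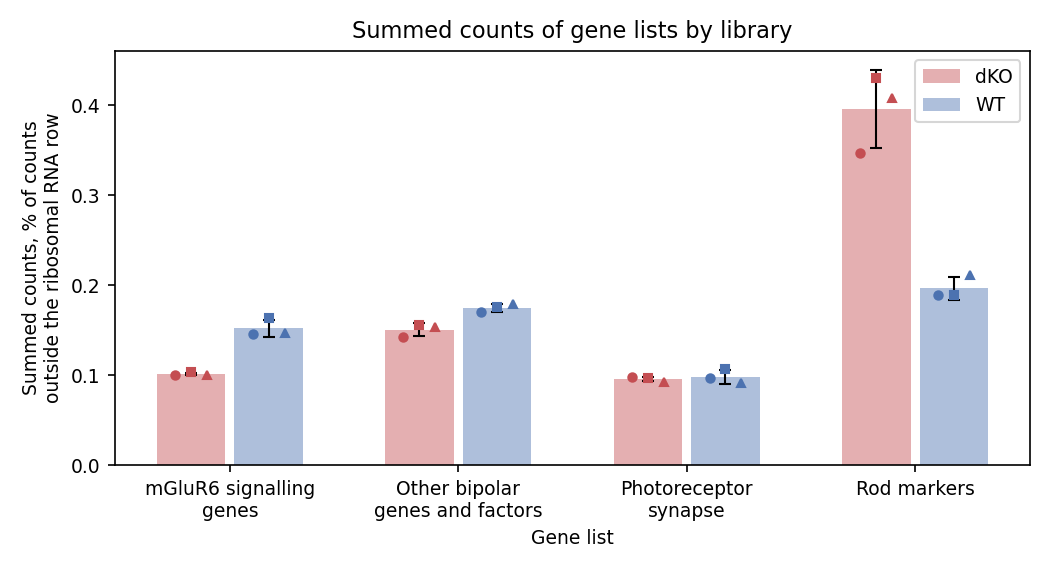
Summed counts of 4 gene lists as a percent of counts outside the ribosomal RNA row; bars are means, error bars SD (n = 3), points the libraries, dKO left of WT. The mGluR6 genes stand at 0.102% in dKO and 0.152% in WT, the photoreceptor synapse list overlaps between groups, and the rod markers stand at 0.395% in dKO and 0.196% in WT.

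Other proteins of the same postsynaptic complex gave no call. Gnb3, the beta subunit paired with Gαo in ON bipolar cells and also the cone transducin beta subunit, was at 17.5 ± 2.63 CPM in dKO and 22.0 ± 2.35 in WT (SD, n = 3 each), a log2 fold change of -0.36 ± 0.13 (SE; adjusted p = 0.155, edgeR). Gng13, the gamma subunit, was at 5.31 ± 1.46 CPM in dKO and 5.71 ± 0.618 in WT. Gnb5, the obligate partner of RGS7 and RGS11, was at 10.8 ± 0.336 CPM in dKO and 9.69 ± 1.54 in WT, and Rgs9bp, a membrane anchor of RGS11, at 4.27 ± 1.57 in dKO and 4.09 ± 0.693 in WT (SD, n = 3 each). Of these 4 genes 0 were called in either direction by edgeR, DESeq2 or limma-voom, and 1, Gnb3, had an unadjusted edgeR p under 0.05. Their median log2 fold change was -0.0027. Of all 8444 genes tested, 581 were lower and 478 higher at an unadjusted edgeR p under 0.05.

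On the photoreceptor side of the synapse, 9 of 10 listed genes were tested and 0 were called by edgeR, DESeq2 or limma-voom. Slc17a7, the vesicular glutamate transporter of photoreceptors and bipolar cells, was at 29.3 ± 2.76 CPM in dKO and 24.1 ± 1.34 in WT (SD, n = 3 each; log2 fold change 0.26 ± 0.12, SE; adjusted p = 0.330, edgeR). Cacna2d4, a subunit of the release-controlling calcium channel, was at 17.9 ± 1.66 CPM in dKO and 21.4 ± 2.49 in WT (log2 fold change -0.29 ± 0.13; adjusted p = 0.303). Both had an unadjusted edgeR p under 0.05, as did 581 genes in the lower and 478 in the higher direction of all 8444 tested. Lrit1 had a log2 fold change of -0.29 ± 0.16 (SE; adjusted p = 0.451), and Cacnb2, another subunit of that channel, of -0.26 ± 0.25 (adjusted p = 0.746). Elfn1, whose protein contacts mGluR6 from the rod terminal, had 2 to 5 counts in dKO and 1 to 4 in WT and was below the count minimum; without a filter its log2 fold change was -0.27 ± 0.84 (SE; adjusted p = 0.926, edgeR).

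**Figure D4:**
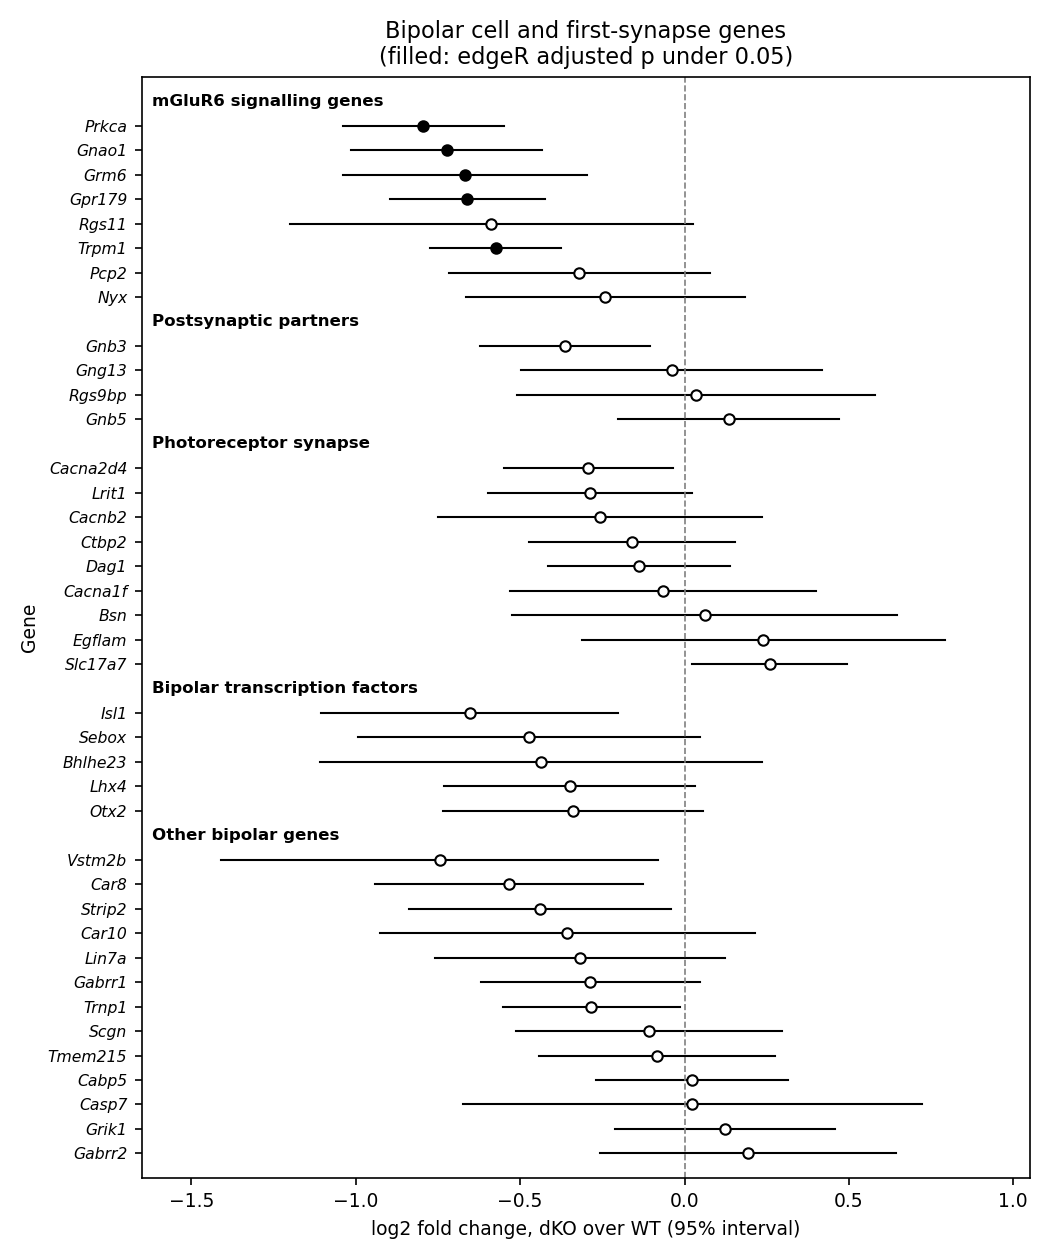
log2 fold change (dKO over WT) with its 95% interval for tested genes of the mGluR6 cascade and of 4 related lists, except 1 transcription factor not shown; filled points passed an edgeR adjusted p of 0.05. The 5 filled points, Prkca, Gnao1, Grm6, Gpr179 and Trpm1, lie between -0.79 and -0.57 (positive under library-total scaling), and every other gene is unfilled.

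Other genes of bipolar cells leaned the same way without passing. Of 11 bipolar transcription factors 6 were tested, all below 0 on the log2 scale (median -0.39), and 0 were called by edgeR, DESeq2 or limma-voom (2 with an unadjusted edgeR p under 0.05). Over all 8444 genes tested, 4235 were below 0, and 581 were lower and 478 higher at an unadjusted edgeR p under 0.05. Isl1, needed for ON bipolar cells and also made by RGCs and amacrine cells, was at 4.24 ± 0.940 CPM in dKO and 7.05 ± 0.810 in WT (SD, n = 3 each; log2 fold change -0.65 ± 0.23, SE; adjusted p = 0.138, edgeR). Lhx4 had a log2 fold change of -0.35 ± 0.19 (SE; adjusted p = 0.456, edgeR) and Sebox of -0.47 ± 0.26 (adjusted p = 0.459).

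Of 15 other bipolar genes 13 were tested, 9 with a negative value and a median of -0.28, and again 0 were called by edgeR, DESeq2 or limma-voom (4 with an unadjusted edgeR p under 0.05, all lower). The same counts over all 8444 genes tested were 4235 negative and, at that unadjusted p, 581 lower. Car8, a carbonic anhydrase-related protein of rod bipolar cells, was at 5.79 ± 0.753 CPM in dKO and 8.83 ± 2.74 in WT (SD, n = 3 each; log2 fold change -0.53 ± 0.20, SE; adjusted p = 0.207, edgeR). Vstm2b (-0.74 ± 0.33; adjusted p = 0.315), Strip2 (-0.44 ± 0.20; adjusted p = 0.327) and Trnp1 (-0.28 ± 0.14; adjusted p = 0.364) had the next smallest p. Cabp5, a calcium-binding protein of rod bipolar and some cone bipolar cells, was at 14.1 ± 2.27 CPM in dKO and 14.2 ± 0.751 in WT, with a log2 fold change of 0.023 ± 0.146. It was chosen after its values were seen.

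Ratios within a library do not depend on scaling. For every count in the transcription factor and other bipolar lists together, the 10 genes had 0.708, 0.662 and 0.655 counts in dKO replicates 1 to 3, against 0.859, 0.931 and 0.822 in WT. The dKO ratios were all below the WT ratios, and the summed share of those lists was 0.151% ± 0.00757 in dKO and 0.175% ± 0.00435 in WT (SD, n = 3 each), a ratio of 0.862. Split by their calls, the summed share of the 5 called members had a dKO over WT ratio of 0.640, and that of the other 5 a ratio of 0.854. The split follows the calls themselves, so a lower ratio in the called members was built in. It is a description, with no test, and does not show that the members changed unevenly. For single genes 4 pairs, chosen after the counts were seen and 3 of them given here, were compared by an exact permutation test (two-sided; the smallest p that 3 against 3 libraries allow is 0.1). Trpm1 per Slc17a7 was 1.30, 1.36 and 1.36 in dKO, against 2.18, 2.60 and 2.45 in WT (exact p = 0.1, 0.133 adjusted over the 4 pairs). Prkca per Cabp5 was 1.38, 1.00 and 1.04 in dKO, against 1.61, 2.19 and 2.13 in WT (exact p = 0.1, adjusted 0.133). Grm6 per Nyx was 0.794, 1.21 and 1.26 in dKO, against 1.42, 1.33 and 1.83 in WT (exact p = 0.1, adjusted 0.133). No pair could pass a threshold of 0.05 in this design, so unequal change within a pair is not shown.

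Marker lists of other cells differed in direction: rod marker sums were higher in dKO, cone marker sums were lower, and microglia and endothelial sums overlapped between the groups. The 15 rod markers took 0.347% to 0.431% of non-ribosomal counts in dKO and 0.189% to 0.211% in WT. Of these, 9 of 14 tested were called higher by edgeR, and 0 of 15 were at 0 counts in any library. Over all 8444 genes tested, edgeR called 0.734% higher and 1.18% lower. Gnat1, rod transducin, was at 49.8 ± 8.41 in dKO and 25.4 ± 1.96 in WT (SD, n = 3 each). For each rod marker count the mGluR6 genes had 0.289, 0.240 and 0.247 counts in dKO, against 0.773, 0.861 and 0.696 in WT. The 10 Müller glia markers summed to 3.11% to 3.37% in dKO and 3.02% to 3.11% in WT, with 0 of 10 called by edgeR, Glul and Clu being the most abundant. The 13 RGC markers summed to 0.0249% to 0.0256% in dKO and 0.0164% to 0.0190% in WT. Nefl was called higher and Thy1, the other tested, was not called. Nefl reached the count minimum in 3 dKO libraries and in 0 WT libraries, so it was tested only through the group where it was high. Pou4f1, Pou4f2 and Pou4f3 were among 6 markers at 0 in at least 1 library. The 9 cone markers summed to 0.00690% to 0.0117% in dKO and 0.0141% to 0.0162% in WT, with Gnat2, the cone transducin alpha subunit and 1 of the 2 tested, called lower; Gngt2 was the other. Amacrine markers took 0.0438% to 0.0463% in dKO and 0.0393% to 0.0413% in WT, and horizontal cell markers, led by Calb1 and Onecut2, at most 0.00104% in dKO and 0.000601% in WT. Microglia markers, led by Ctss and C1qa, took 0.508% to 0.528% in dKO and 0.491% to 0.530% in WT. Endothelial markers took 0.203% to 0.212% in dKO and 0.194% to 0.245% in WT, mostly from Kdr and Flt1. Cdh5 was at 0.227 ± 0.244 CPM in dKO and 1.24 ± 0.698 in WT, and Cldn5 at 0.574 ± 0.433 and 2.10 ± 0.454 (SD). Both were below the count minimum, and without a filter neither passed (edgeR adjusted p = 0.126 and 0.178). Pecam1 (log2 fold change 0.15) and Tie1 (0.58 without a filter) had positive values. The part of these cell types in the lower mGluR6 genes was not tested.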

How the data were processed

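Total RNA of sorted cells was sequenced in 3 dKO and 3 WT libraries. The authors deposited a table of raw counts, 1 row per Ensembl gene, without normalization. STAR 2.7.0d, DESeq2 1.22.2 and GRCm38 are named per the submitters' processing notes. Not given in the sources used here: counting program, strand setting, annotation release. Positions and exon lengths came from GENCODE M21 (GRCm38), and upstream sequences from RefSeq (GRCm38.p6).

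Genes were kept by edgeR's filterByExpr (minimum count 10, minimum total 15), scaled by TMM (factors 0.641 to 3.43, the highest for dKO replicate 3) and tested with edgeR 4.0.16 in R 4.3.3 (two-sided quasi-likelihood tests with group as the only term, Benjamini-Hochberg adjustment over 8444 genes, threshold 0.05). Each SE is the log2 fold change over the root of its F statistic, and intervals are 95%. The steps were tested on simulated data. Sums and ratios were computed per library. Replicates differed by more than counting noise (chi-square per degree of freedom 1.13 to 1.48), and each library counts as 1 replicate. Reads carry no molecular identifiers that would make them independent molecules.

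As alternatives, scaling was by RLE, upper quartile or library total; the filter was dropped or set to 1 CPM in 3 libraries; DESeq2 1.42.0 and limma-voom (limma 3.58.1) replaced edgeR; a replicate block was fitted; single libraries were left out; the ribosomal RNA row was removed; and dKO replicate 3 was thinned to the depth of the others. The sum was also taken over other denominators, without the most counted member, and without Gnao1, Rgs7 and Prkca. A denominator of protein-coding counts was added after seeing the data. All 10 members are named; of the related lists, called genes or else the 4 with the smallest p are, with all postsynaptic partners, the 2 most abundant genes of each marker list, and the 5 genes most like the sum; others were chosen after their values were seen. Members and lists were chosen with earlier results of these data known. Some genes that this rule names are not reported here.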

Additional observations from a re-analysis of the deposited data

How the results depend on the processing

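Trpm1, Gpr179, Prkca and Gnao1 were all called lower in 15 of 16 alternatives, and Grm6 in 8 of 16. The exception for all was library-total scaling, which moves the median log2 fold change of all genes to 1.21 and called 0 members lower (0 also at an unadjusted p under 0.05), 0 genes lower and 3 higher by edgeR. There the log2 fold change was 0.55 for Grm6, 0.62 for Trpm1, 0.51 for Gpr179, 0.44 for Prkca and 0.51 for Gnao1, that is -0.66, -0.59, -0.70, -0.77 and -0.71 relative to that median. The log2 ratio of the summed shares was 0.59 over the library total, -0.60 over the TMM library size and -0.60 over protein-coding counts. Over all genes, 100 were lower and 62 higher; DESeq2 called 26 and 26, and 4 of the members, all but Grm6. Leaving out each library in turn gave 61 to 115 genes lower (61 without WT replicate 1, 66 without dKO replicate 3), 29 to 71 higher (29 without WT replicate 1), 4 or 5 members lower, and a log2 ratio of the summed shares of -0.61 to -0.53. With the replicate number as a block, 100 genes were lower, 58 higher and 5 members lower; same-numbered libraries did not deviate together (r = -0.038, -0.00064 and -0.016 over 2334 genes), so the numbers are not taken as pairs. Car8 passed with dKO replicate 3 thinned (log2 fold change -0.87, adjusted p = 0.0432, edgeR). Depth limits the low members: Lrit3, Rgs7 and Rgs11 had 1 to 43 counts per library.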

Other observations

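Bipolar factors below the count minimum did not all lean the same way. Irx5 had 9, 5 and 13 counts in dKO replicates 1 to 3 and 9, 9 and 8 in WT (1.26 ± 0.441 CPM in dKO and 2.29 ± 0.491 in WT; SD, n = 3 each). Irx6, a factor of some OFF cone bipolar cells, had 15, 9 and 23 counts in dKO and 4, 2 and 6 in WT (2.19 ± 0.689 CPM in dKO and 1.01 ± 0.464 in WT), with overlapping CPM. Vsx1, of other cone bipolar cells, was at 1.08 ± 0.447 CPM in dKO and 1.045 ± 0.445 in WT. Without a filter their log2 fold changes were -0.95, 0.95 and 0.24, and none of the 3 passed (edgeR adjusted p = 0.585, 0.644 and 0.897). These 3 genes were chosen after their values were seen.

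Among the 2330 other genes that averaged 10 CPM or more, the log2 CPM of Sox6, Ifit3, Xrn1, Kmt2c and Rnf213 followed the summed mGluR6 genes most closely over the 6 libraries (Pearson r 0.98 to 0.99). The 6 points fall into the 2 groups, so a high r mostly reflects a difference between them. Ifit3 was at 11.9 ± 0.220 CPM in dKO and 20.996 ± 1.34 in WT, and Sox6 at 11.0 ± 0.343 in dKO and 14.5 ± 0.721 in WT (SD, n = 3 each). Genes of the other bipolar list that averaged 10 CPM or more were spread widely. Trnp1 had r = 0.82 (rank 154), Gabrr1 0.76 (rank 229), Cabp5 0.036 (rank 1129) and Grik1 -0.31 (rank 1554).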
